A study of Mus musculus with 4 samples.

Results

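The genes described here are 7 mouse CC chemokines that do not signal through CCR2 as their main receptor: Ccl3, Ccl4, Ccl5, Ccl6, Ccl9, Ccl11 and Ccl24. They were taken by gene symbol, without regard to their values, and are 7 of the 32285 genes in the count matrices. Single-cell RNA-seq had been run on mononuclear cells of skeletal muscle from mice aged 14 weeks, with 1 library for each of 4 groups: mdx5cv/Ccr2-/- quadriceps, mdx5cv quadriceps, mdx5cv/Ccr2-/- diaphragm and mdx5cv diaphragm. All 4 groups carry the mdx5cv allele of the dystrophin gene, a model of Duchenne muscular dystrophy, so no library came from healthy muscle. The mdx5cv/Ccr2-/- mice also lack Ccr2, the receptor by which inflammatory monocytes leave the bone marrow. By its title, the study is about what becomes of the macrophages that live in dystrophic muscle when this supply is cut. The sources used here do not give the number of animals behind a library, the part of Ccr2 that is deleted or the way the knockout was made.

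CC chemokines are small secreted proteins that steer leukocytes by binding receptors with 7 membrane-spanning helices. Ccl3 and Ccl5 bind CCR1, a receptor of monocytes, macrophages and neutrophils, and Ccl4, a close relative of Ccl3, attracts macrophages and lymphocytes. Ccl6 and Ccl9 are made by rodent myeloid cells and bind CCR1. Ccl11 and Ccl24, known as eotaxins, bind CCR3 and draw eosinophils into tissue. In injured muscle, chemokines of this family are made by infiltrating leukocytes and by fibro-adipogenic progenitors (FAPs), the fibroblast-like stromal cells of muscle.

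After filters on depth and mitochondrial share and removal of likely doublets, 6362 cells of mdx5cv/Ccr2-/- quadriceps, 4965 of mdx5cv quadriceps, 6049 of mdx5cv/Ccr2-/- diaphragm and 11193 of mdx5cv diaphragm were used. Their median depth lay between 5874 and 8957 unique molecular identifiers (UMIs, each a tag for 1 captured RNA molecule). Of all barcodes, 104 occurred in more than 1 library, which is 0.311% of those deposited. Ccr2 had 15.6 CPM (UMIs of the gene per 1000000 UMIs) in mdx5cv/Ccr2-/- quadriceps against 253.7 CPM in mdx5cv quadriceps, and 8.495 CPM in mdx5cv/Ccr2-/- diaphragm against 137.3 CPM in mdx5cv diaphragm. The 3′ tags need not lie in the deleted part, so the remaining counts do not measure receptor. Cells were put into classes by counting marker genes with a UMI, and 94.99% of cells found a class. In the macrophage-like, fibroblast-like and natural killer (NK)-like classes all 8 markers were detected, each in at least 10% of the cells. None of the 7 chemokines was itself a marker of any class.

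Each group had 1 library, so no difference below has a replicate check and no test was run. Intervals in brackets are exact 95% intervals that cover counting error alone, taking UMIs as independent. They cover neither cell-to-cell variation nor differences between animals. A ratio is called when it is at least 1.5-fold and its interval leaves out 1.

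Of the 7 genes, 6 lie on chromosome 11 in build GRCm38. Ccl5 (ENSMUSG00000035042, chr11:83525778-83530518, minus strand), Ccl9 (ENSMUSG00000019122, chr11:83572919-83578636, minus strand), Ccl6 (ENSMUSG00000018927, chr11:83587882-83593087, minus strand), Ccl3 (ENSMUSG00000000982, chr11:83647844-83649355, minus strand) and Ccl4 (ENSMUSG00000018930, chr11:83662584-83664683, plus strand) fall within 138.9 kb of each other. Ccl11 (ENSMUSG00000020676, chr11:82057823-82062955, plus strand) lies 1462.8 kb away from Ccl5, and Ccl24 (ENSMUSG00000004814, chr5:135569937-135573049, minus strand) is on chromosome 5. Ccl6 overlaps the gene E230016K23Rik on the opposite strand, which had 156 UMIs in all deposited barcodes.

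Ccl9 and Ccl6 are neighbours, 9245 bases apart, and below they were the pair with the most alike distribution over cell classes. The RefSeq table of promoters held 3 of the 7 genes, and these 2 are shown because they lay next to each other and were found in the same cells. Each line gives the 250 bases before the gene's start on the minus strand of GRCm38.p6, and capitals mark every run of 12 or more bases that the 2 promoters share.

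Ccl6 (chr11:83593088-83593337): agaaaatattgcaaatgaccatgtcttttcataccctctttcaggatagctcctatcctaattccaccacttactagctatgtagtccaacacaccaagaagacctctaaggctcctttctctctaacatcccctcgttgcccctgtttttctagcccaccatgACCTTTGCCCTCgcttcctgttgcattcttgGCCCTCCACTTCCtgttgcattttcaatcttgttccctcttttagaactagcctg
Ccl9 (chr11:83578637-83578886): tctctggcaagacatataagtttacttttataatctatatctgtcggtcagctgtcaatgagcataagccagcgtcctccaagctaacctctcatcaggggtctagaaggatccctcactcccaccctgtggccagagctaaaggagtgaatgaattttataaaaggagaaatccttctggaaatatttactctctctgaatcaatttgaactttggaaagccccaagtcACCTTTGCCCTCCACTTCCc

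The shared runs are GCCCTCCACTTCC, 13 bases long, and ACCTTTGCCCTC, 12 bases long. Counted back from the gene's start, the longer run spans -55 to -43 in the Ccl6 and -14 to -2 in the Ccl9 promoter. The shorter spans -86 to -75 in the Ccl6 and -20 to -9 in the Ccl9 promoter, where both overlap. The first was found in 3 and the second in 2 other promoters of the 32851 in the table. On either strand, the letters GGAAGT (ETS type) occur once in each of the Ccl3, Ccl6 and Ccl9 promoters, within the 13-base run in Ccl6 and Ccl9, and in 19.7% of all promoters. An NF-kB type motif, present in 1.4% of all promoters, matched once in that of Ccl9 as GGAAAGCCCC, and TGANTCA (AP-1 type), present in 6.7%, matched once there. TATAAA, in 12.4% of all promoters, matched 3 times in that of Ccl9, where 2 of the matches overlap. TTGCNNAA (C/EBP type, 9.6% of promoters) and TTCNNNGAA (STAT type, 7.0%) had no match in these 3 windows.

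The 7 chemokines came from few kinds of cells (the heat map of levels by class). Macrophage-like cells held 51.8% to 81.1% of each library's Ccl3 UMIs, 51.3% to 67.9% of Ccl4, 75.9% to 84.9% of Ccl6, 68.3% to 80.9% of Ccl9 and 87.5% to 92.9% of Ccl24. Ccl11 was a stromal transcript, with 81.8% to 97.1% of its UMIs in FAP/fibroblast-like cells. Ccl5 came from lymphocytes and dendritic cells: T-like, NK-like and migratory dendritic cell (DC)-like cells together made up most of its UMIs. The plot of source shares shows the same 3 patterns in all 4 libraries.

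**Figure D1:**
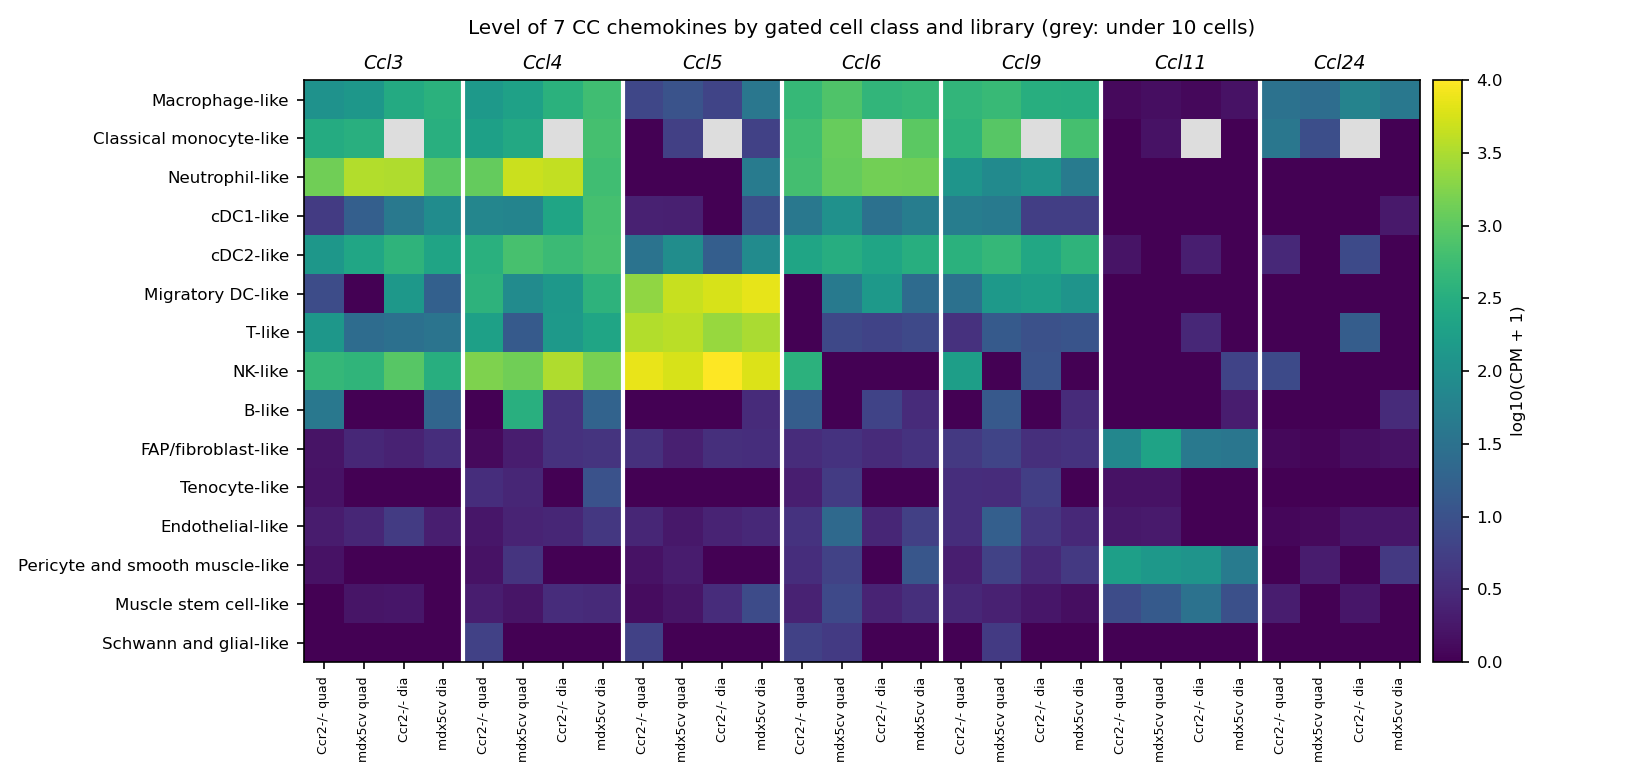
Levels of the 7 chemokines (columns grouped by gene, 4 libraries each) in the gated cell classes (rows), as log10(CPM + 1) by colour, with grey for fewer than 10 cells. Columns marked Ccr2-/- are the mdx5cv/Ccr2-/- libraries. Ccl3, Ccl4, Ccl6 and Ccl9 are high in myeloid classes, Ccl5 in NK-like, T-like and migratory DC-like cells, Ccl11 in fibroblast-like and mural cells, and Ccl24 in macrophage-like cells.

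**Figure D2:**
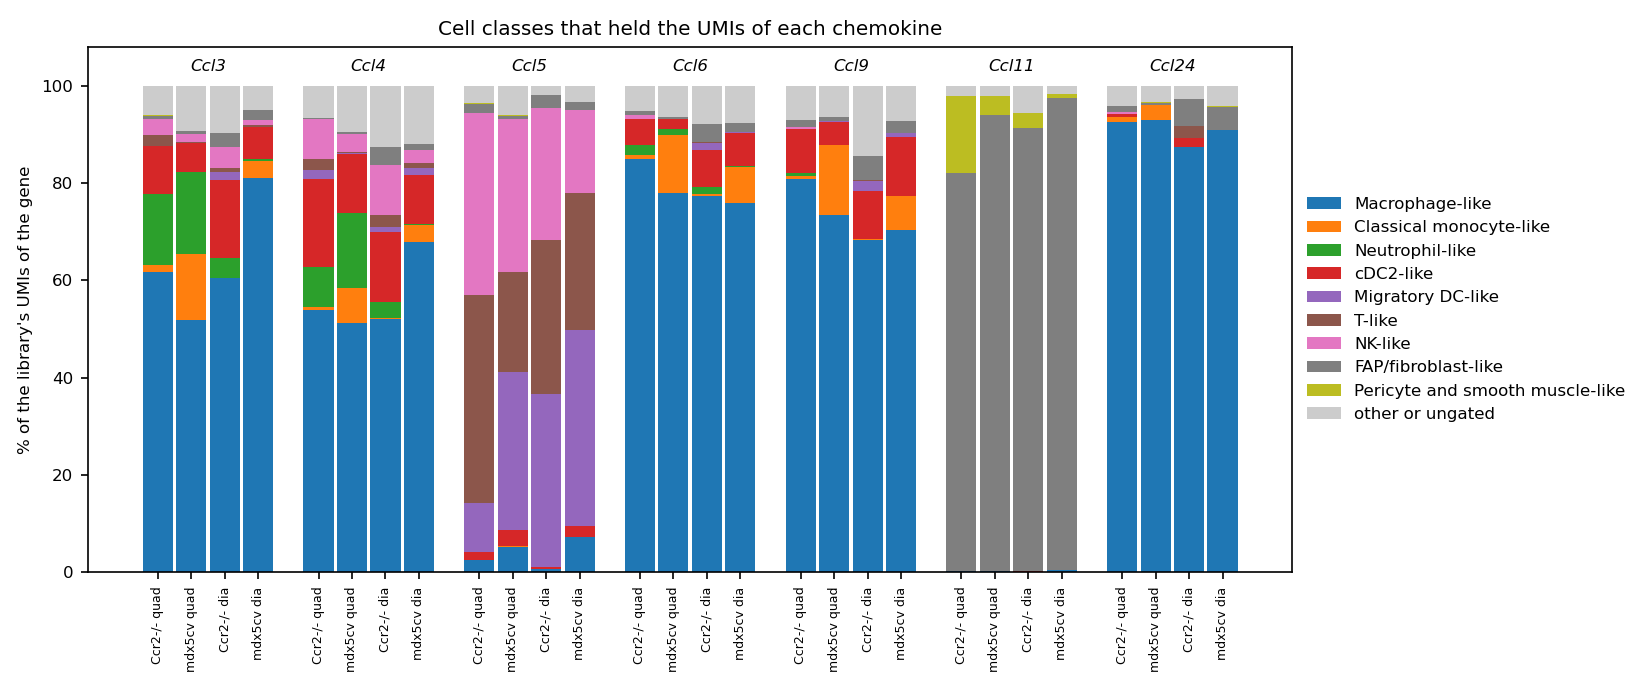
Share of each library's UMIs of a chemokine (y axis, % of UMIs) by the cell class that held them, 1 stacked bar per library, with Ccr2-/- marking the mdx5cv/Ccr2-/- libraries. Macrophage-like cells hold 51.3% or more of the Ccl3 and Ccl4 UMIs in every library, and fibroblast-like cells hold 81.8% to 97.1% of the Ccl11 UMIs.

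Over all cells, most of these chemokines had lower levels in the mdx5cv/Ccr2-/- libraries. In quadriceps 5 of the 7 were called lower and none higher, against 4.82% lower and 4.98% higher of the 6241 genes with a mean of at least 20 CPM and at least 50 UMIs. In diaphragm 4 were called lower and none higher, against 4.52% lower and 2.64% higher of those genes. Of the 7 members, 6 are among those genes. The other is Ccl24, which lay below 20 CPM and was called in neither muscle. Ccl6 had 110.6 CPM in mdx5cv/Ccr2-/- quadriceps and 334.7 CPM in mdx5cv quadriceps, a ratio of 0.331 [0.321 to 0.340], and 43.3 CPM in mdx5cv/Ccr2-/- diaphragm and 103.3 CPM in mdx5cv diaphragm, a ratio of 0.419 [0.401 to 0.438]. Ccl3, Ccl4 and Ccl9 were also called lower in both muscles, with ratios between 0.379 and 0.507. Ccl5 had ratios of 0.802 [0.762 to 0.844] in quadriceps and 0.822 [0.791 to 0.854] in diaphragm and was called in neither. On mean UMIs per cell the diaphragm ratios of Ccl3 and Ccl9 were 0.705 and 0.738 and no longer called, and that of Ccl5 was 1.20. Without the 1% of cells with the most UMIs of the gene, the Ccl5 ratios were 0.451 in quadriceps and 0.331 in diaphragm, the Ccl4 ratios 0.257 in quadriceps and 0.198 in diaphragm, and the Ccl3 ratio in diaphragm 0.276. Ccl11 is the fifth called in quadriceps, and its diaphragm ratio of 1.39 [1.31 to 1.48] on CPM was 2.03 on mean UMIs per cell and then called higher. Between muscles, Ccl6 and Ccl9 were called lower in diaphragm in mdx5cv/Ccr2-/- mice, and Ccl6, Ccl9 and Ccl11 in mdx5cv mice. The shares of measured genes called lower there were 10.9% in mdx5cv/Ccr2-/- and 9.95% in mdx5cv mice, and those called higher were 7.48% in mdx5cv/Ccr2-/- and 8.94% in mdx5cv mice. The make-up of the libraries differed as well. Macrophage-like cells were 13.3% of cells in mdx5cv/Ccr2-/- quadriceps against 24.0% in mdx5cv quadriceps, and 7.14% in mdx5cv/Ccr2-/- diaphragm against 15.8% in mdx5cv diaphragm. FAP/fibroblast-like cells, which held most Ccl11, were 23.6% in mdx5cv/Ccr2-/- and 20.5% in mdx5cv quadriceps. In diaphragm they were 65.1% in mdx5cv/Ccr2-/- and 58.2% in mdx5cv muscle. The part of make-up in the levels over all cells was not tested. Levels within a class, given next, are scaled to that class's own UMIs. Whether the make-up also reaches them, through RNA from other cells or the mix of subsets within a class, was not tested.

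Within macrophage-like cells the picture was narrower, as the plot of genotype ratios shows. In quadriceps only Ccl5 and Ccl6 were called lower and none was called higher, against 2.82% lower and 3.16% higher of 5418 genes. In diaphragm Ccl4 and Ccl5 were called lower and Ccl24 higher, against 3.77% lower and 5.46% higher. There were 848 macrophage-like cells in mdx5cv/Ccr2-/- quadriceps, 1190 in mdx5cv quadriceps, 432 in mdx5cv/Ccr2-/- diaphragm and 1770 in mdx5cv diaphragm. CPM sets aside how much RNA a cell yielded, and the median depth of macrophage-like cells was 9926 UMIs in mdx5cv/Ccr2-/- diaphragm and 6762 UMIs in mdx5cv diaphragm. On mean UMIs per cell, which shifts the genotype ratio of every gene by 0.60 (log2) in diaphragm and by -0.03 in quadriceps, the Ccl4 ratio in diaphragm was 0.936 and no longer called.

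**Figure D3:**
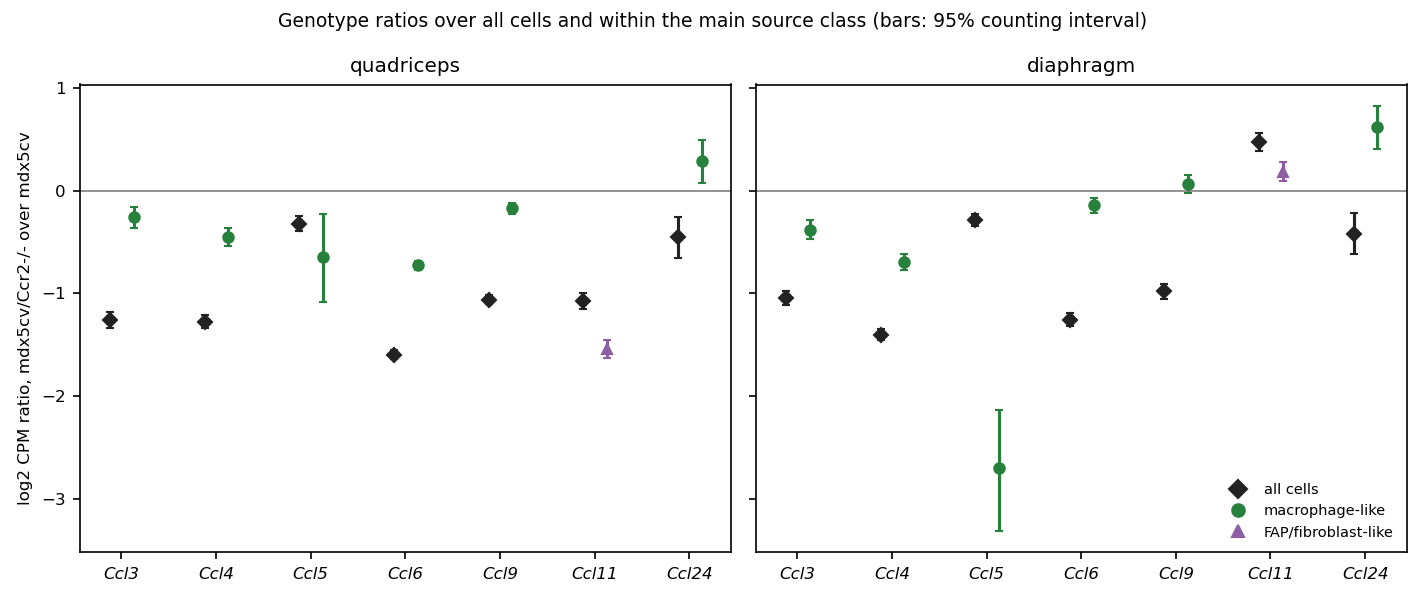
Log2 CPM ratio of mdx5cv/Ccr2-/- over mdx5cv (y axis) for each chemokine in quadriceps and diaphragm, over all cells (diamonds), in macrophage-like cells (circles) and in fibroblast-like cells (triangles), with 95% counting intervals. Ccl3, Ccl4, Ccl6 and Ccl9 have lower ratios over all cells than in macrophage-like cells in both muscles, and Ccl11 lies below 0 in quadriceps and above it in diaphragm.

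Ccl3, a ligand of CCR1, and Ccl4, its close relative, were higher in the macrophage-like cells of diaphragm than of quadriceps in both genotypes. In macrophage-like cells Ccl3 had 109.8 CPM in mdx5cv/Ccr2-/- quadriceps, 131.0 in mdx5cv quadriceps, 275.8 in mdx5cv/Ccr2-/- diaphragm and 358.1 in mdx5cv diaphragm. Ccl4 had 139.3 CPM in mdx5cv/Ccr2-/- quadriceps, 190.8 in mdx5cv quadriceps, 363.4 in mdx5cv/Ccr2-/- diaphragm and 587.6 in mdx5cv diaphragm. Both diaphragm libraries stood above both quadriceps libraries for each gene. The ratio of diaphragm to quadriceps was 2.51 [2.32 to 2.72] for Ccl3 and 2.61 [2.44 to 2.80] for Ccl4 in mdx5cv/Ccr2-/- mice, and 2.73 [2.60 to 2.88] for Ccl3 and 3.08 [2.95 to 3.21] for Ccl4 in mdx5cv mice. Between genotypes Ccl3 was not called, with ratios of 0.838 [0.781 to 0.899] in quadriceps and 0.770 [0.724 to 0.819] in diaphragm, the second of which was 1.17 on mean UMIs per cell. Ccl4 had ratios of 0.730 [0.687 to 0.776] in quadriceps and 0.619 [0.587 to 0.652] in diaphragm, and the quadriceps value was 0.646 without the 1% of cells with the most Ccl4. On mean UMIs per cell, which lowers every diaphragm value of mdx5cv mice by 0.92 (log2), the ratios of diaphragm to quadriceps there were 1.44 for Ccl3, no longer called, and 1.63 for Ccl4.

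Across the muscle contrast in macrophage-like cells, 3 members were called higher in diaphragm and none lower in mdx5cv/Ccr2-/- mice, against 8.34% higher and 7.03% lower of 5418 genes. In mdx5cv mice 4 were called higher and 2 lower, against 5.19% higher and 2.73% lower. Ccl5, among these 4, lay below the level limit of the 5418 genes. Ratios were formed for 6 members in mdx5cv/Ccr2-/- and 7 in mdx5cv mice. Genes that respond to tissue dissociation moved with this contrast. All 14 immediate early and dissociation genes measured, such as the AP-1 subunits Fos and Jun and the heat shock protein Hspa1b, were called higher in diaphragm macrophage-like cells in both genotypes, with a median log2 ratio of 1.51 in mdx5cv/Ccr2-/- mice and 1.61 in mdx5cv mice (0.00 and -0.01 over all measured genes). Fos had 1289 CPM in mdx5cv/Ccr2-/- diaphragm against 400.9 in mdx5cv/Ccr2-/- quadriceps, and 1458 in mdx5cv diaphragm against 514.9 in mdx5cv quadriceps. Of the list of 12 NF-kB feedback and inflammatory genes all 8 that were measured were called higher as well, with median log2 ratios of 1.56 in mdx5cv/Ccr2-/- mice and 1.51 in mdx5cv mice. Among them Nfkbia, the inhibitor that NF-kB induces, had 351.8 CPM in mdx5cv/Ccr2-/- diaphragm against 165.6 in mdx5cv/Ccr2-/- quadriceps, and 463.8 in mdx5cv diaphragm against 168.0 in mdx5cv quadriceps. The part of dissociation in the Ccl3 and Ccl4 levels was not tested.

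**Figure D4:**
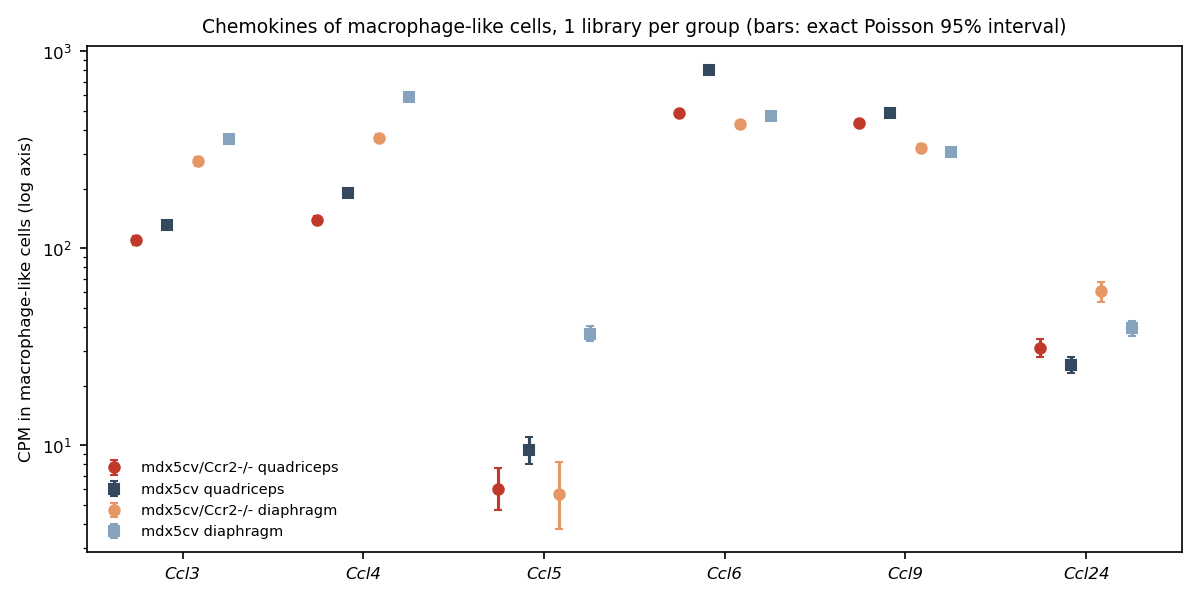
Levels of the chemokines in macrophage-like cells (y axis, CPM on a log axis) in the 4 libraries, with exact Poisson 95% intervals. Ccl3 and Ccl4 are higher in both diaphragm libraries than in both quadriceps libraries, and Ccl6 is highest in mdx5cv quadriceps at 803.0 CPM.

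The shares of cells with a UMI stood in the same order for Ccl4, although the intervals of mdx5cv/Ccr2-/- diaphragm and mdx5cv quadriceps overlapped. With every cell thinned to 2000 UMIs, 11.6% [9.49 to 14.0] of macrophage-like cells in mdx5cv/Ccr2-/- quadriceps held a Ccl4 UMI, against 18.5% [16.3 to 20.9] in mdx5cv quadriceps, and 20.05% [16.3 to 24.2] in mdx5cv/Ccr2-/- diaphragm against 29.6% [27.4 to 31.9] in mdx5cv diaphragm. Without thinning these shares were 26.9%, 32.2%, 33.1% and 39.0% in the same order of libraries. Thinning left out 29, 46, 18 and 102 shallower cells. The share in endothelial-like cells, which should lack these genes, was at most 0.746% for Ccl4 at 2000 UMIs, with median depths of 2616 to 4716 UMIs there and 6762 to 12330 UMIs in macrophage-like cells. For Ccl3 the thinned shares were 14.8% in mdx5cv/Ccr2-/- quadriceps, 15.4% in mdx5cv quadriceps, 23.9% in mdx5cv/Ccr2-/- diaphragm and 27.2% in mdx5cv diaphragm, and the genotype intervals overlapped in both muscles. Both transcripts were held by few cells: the top decile of macrophage-like cells with the most Ccl3 had 62.5% to 70.3% of its UMIs, and that with the most Ccl4 had 72.4% to 82.8%. Of macrophage-like cells with a Ccl3 UMI, 45.5% to 58.4% also held Ccl4.

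Other myeloid cells and NK-like cells made Ccl3 and Ccl4 too. Neutrophil-like cells had the highest Ccl3 level in all 4 libraries among classes of at least 10 cells, and also expressed Ccr1, but they were few. In quadriceps, where there were 70 such cells in mdx5cv/Ccr2-/- and 73 in mdx5cv muscle, Ccl3 had 1377 CPM in mdx5cv/Ccr2-/- and 3502 CPM in mdx5cv muscle, a ratio of 0.393 [0.342 to 0.451]. Ccl4 in the same cells had 1147 CPM in mdx5cv/Ccr2-/- and 4727 CPM in mdx5cv quadriceps, a ratio of 0.243 [0.210 to 0.280]. No share over all genes was taken for this class, and a lower level there was not particular to these chemokines. Nfkbia had 1767 CPM in mdx5cv/Ccr2-/- and 5280 in mdx5cv quadriceps, and Cxcl2 had 10160 and 21900. Others went the other way, such as Fos with 1255 in mdx5cv/Ccr2-/- and 783.7 in mdx5cv quadriceps. At equal depth 44.2% [30.5 to 58.7] of neutrophil-like cells in mdx5cv/Ccr2-/- quadriceps and 72.6% [59.8 to 83.2] in mdx5cv quadriceps held a Ccl3 UMI. Each diaphragm library had only 12 neutrophil-like cells, and no ratio was formed there. NK-like cells had 1696 CPM of Ccl4 in mdx5cv/Ccr2-/- quadriceps, 1373 in mdx5cv quadriceps, 3284 in mdx5cv/Ccr2-/- diaphragm and 1526 in mdx5cv diaphragm, from 23 to 51 cells each.

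Conventional DC type 2 (cDC2)-like cells differed in Ccl3 in opposite directions in the 2 muscles. Ccl3 had 128.2 CPM in mdx5cv/Ccr2-/- quadriceps against 233.6 in mdx5cv quadriceps, a ratio of 0.549 [0.454 to 0.663], and 393.2 CPM in mdx5cv/Ccr2-/- diaphragm against 218.2 in mdx5cv diaphragm, a ratio of 1.80 [1.55 to 2.09]. Of the 5 members with a ratio in these cells, 3 were called lower and none higher in quadriceps. In diaphragm 2 were called lower and 1 higher. Ccl4 had ratios of 0.499 in quadriceps and 0.795 in diaphragm, the second of which was 1.40 on mean UMIs per cell. Of the genes measured in these cells 3.87% were called lower and 12.9% higher in quadriceps, and 5.16% higher and 3.61% lower in diaphragm. A few cells weighed heavily: 1 of the 66 cDC2-like cells of mdx5cv/Ccr2-/- diaphragm held 23.6% of the Ccl3 UMIs of its class, and 1 of 102 in mdx5cv quadriceps held 16.0%. With the cell with the most Ccl3 left out of each library, a setting chosen after seeing the data, the diaphragm ratio was 1.49 [1.27 to 1.76] and no longer called, and the quadriceps ratio was 0.569. On mean UMIs per cell the diaphragm ratio of Ccl3 was 3.17. Thinned shares with a Ccl3 UMI were 14.2% [8.62 to 21.5] in mdx5cv/Ccr2-/- and 14.9% [8.56 to 23.3] in mdx5cv quadriceps, and 27.3% [17.0 to 39.6] in mdx5cv/Ccr2-/- and 22.1% [16.8 to 28.2] in mdx5cv diaphragm, so that a difference in the share of positive cells was not detectable at this depth.

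Ccl5, which T and NK cells make after activation, was highest in 3 lymphoid and dendritic classes. NK-like cells had 7458 CPM in mdx5cv/Ccr2-/- quadriceps, 5633 in mdx5cv quadriceps, 11130 in mdx5cv/Ccr2-/- diaphragm and 6109 in mdx5cv diaphragm, and 96.4% or more of them held a UMI before thinning. T-like cells had 3439 CPM in mdx5cv/Ccr2-/- quadriceps, 3911 in mdx5cv quadriceps, 2412 in mdx5cv/Ccr2-/- diaphragm and 3145 in mdx5cv diaphragm. Migratory DC-like cells, which carry antigen to lymph nodes, had 2175 CPM in mdx5cv/Ccr2-/- quadriceps, 4628 in mdx5cv quadriceps, 5802 in mdx5cv/Ccr2-/- diaphragm and 7014 in mdx5cv diaphragm. These levels rest on few cells: 13 in mdx5cv/Ccr2-/- quadriceps, 24 in mdx5cv quadriceps, 24 in mdx5cv/Ccr2-/- diaphragm and 50 in mdx5cv diaphragm, of which 1 held 79.4%, 46.1%, 45.7% and 28.8% of the class's Ccl5 UMIs in that order. Of these 3 classes only the T-like class reached 50 cells in both diaphragm libraries, with a genotype ratio of 0.767 [0.715 to 0.823] that was not called. It was 1.22 on mean UMIs per cell and 0.618 without the 1% of cells with the most Ccl5.

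Within T-like cells Ccl5 went with CD8, the coreceptor of cytotoxic T cells. Cells with a Cd8a or Cd8b1 UMI and none of Cd4 had 9438 CPM in mdx5cv/Ccr2-/- quadriceps, 9444 in mdx5cv quadriceps, 6201 in mdx5cv/Ccr2-/- diaphragm and 10360 in mdx5cv diaphragm. Those with a Cd4 UMI and none of Cd8a or Cd8b1 had 187.9 CPM in mdx5cv/Ccr2-/- quadriceps, 47.5 in mdx5cv quadriceps, 2892 in mdx5cv/Ccr2-/- diaphragm and 1003 in mdx5cv diaphragm. The counting intervals of the 2 subsets did not overlap in any library, at 8 to 36 cells with CD8 and 5 to 26 with CD4. CD8 cells held 98.1% of the class's Ccl5 UMIs in mdx5cv/Ccr2-/- quadriceps, 62.1% in mdx5cv quadriceps, 63.7% in mdx5cv/Ccr2-/- diaphragm and 65.3% in mdx5cv diaphragm. CD4 cells held 1.21%, 0.160%, 28.2% and 5.62% in the same order, and T-like cells outside both gates held the rest. No UMI of Ccl4 was found in the CD4 cells of any library.

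Macrophage-like cells held little Ccl5. Its level was 6.04 CPM in mdx5cv/Ccr2-/- and 9.47 CPM in mdx5cv quadriceps, and 5.69 CPM in mdx5cv/Ccr2-/- and 36.9 CPM in mdx5cv diaphragm, where the ratio was 0.154 [0.1003 to 0.227]. Thinned shares with a UMI were 0.611% [0.199 to 1.42] in mdx5cv/Ccr2-/- and 1.31% [0.736 to 2.15] in mdx5cv quadriceps, and 0.966% [0.264 to 2.46] in mdx5cv/Ccr2-/- and 2.70% [1.97 to 3.59] in mdx5cv diaphragm. Endothelial-like cells had 0.454%, 0.186%, 0.149% and 0% in the same order of libraries, and the 0 of 525 cells allows a share of up to 0.571%. The interval of mdx5cv diaphragm alone lies wholly above all 4 of the endothelial-like intervals, and the quadriceps ratio of 0.638, which rests on 69 UMIs in mdx5cv/Ccr2-/- and 155 UMIs in mdx5cv muscle, was 0.106 without the 1% of cells with the most Ccl5 and 0.796 under a stricter gate.

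Ccl6 and Ccl9, the rodent CCR1 ligands of myeloid cells, were the most widely detected members in macrophage-like cells. Ccl6 had 485.8 CPM in mdx5cv/Ccr2-/- quadriceps, 803.0 in mdx5cv quadriceps, 426.0 in mdx5cv/Ccr2-/- diaphragm and 468.8 in mdx5cv diaphragm. Ccl9 had 433.8 CPM in mdx5cv/Ccr2-/- quadriceps, 488.0 in mdx5cv quadriceps, 323.6 in mdx5cv/Ccr2-/- diaphragm and 309.2 in mdx5cv diaphragm. The mdx5cv quadriceps library stood highest for both. The genotype ratio of Ccl6 was 0.605 [0.586 to 0.624] in quadriceps and 0.909 [0.864 to 0.956] in diaphragm, and that of Ccl9 was 0.889 [0.858 to 0.921] in quadriceps and 1.05 [0.986 to 1.11] in diaphragm. Per cell, the diaphragm ratios were 1.38 for Ccl6 and 1.58 for Ccl9. At 2000 UMIs, 34.4% [31.2 to 37.8] of macrophage-like cells in mdx5cv/Ccr2-/- quadriceps held Ccl6 against 48.2% [45.3 to 51.2] in mdx5cv quadriceps, and 40.3% [35.6 to 45.2] in mdx5cv/Ccr2-/- diaphragm against 44.4% [42.0 to 46.9] in mdx5cv diaphragm, with at most 1.49% in endothelial-like cells. Of macrophage-like cells with Ccl6, 67.2% to 80.5% also held Ccl9.

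Sorting macrophage-like cells by UMIs of resident genes (at least 3 of 7, among them Folr2, Lyve1 and Cbr2) and of Spp1 with Gpnmb, which mark lipid-associated macrophages of injured muscle, gave subsets in which the quadriceps ratios of Ccl6 ran between 0.287 and 1.07. The resident-gated cells without Spp1 and Gpnmb had 440.0 CPM of Ccl6 in mdx5cv/Ccr2-/- quadriceps and 1535 CPM in mdx5cv quadriceps, a ratio of 0.287 [0.265 to 0.309]. Their Ccl9 had 398.0 CPM in mdx5cv/Ccr2-/- quadriceps and 842.6 CPM in mdx5cv quadriceps, a ratio of 0.472 [0.434 to 0.514]. Both genes were thus lower in this subset of the mdx5cv/Ccr2-/- quadriceps library. In cells with Spp1 and Gpnmb alone Ccl6 had 505.1 CPM in mdx5cv/Ccr2-/- and 472.0 CPM in mdx5cv quadriceps, a ratio of 1.07 [1.01 to 1.13], and Ccl9 had 466.4 CPM in mdx5cv/Ccr2-/- and 276.9 CPM in mdx5cv quadriceps, a ratio of 1.68 [1.58 to 1.80]. Cells with both sets of genes had a quadriceps Ccl6 ratio of 0.516 [0.465 to 0.571], and those with neither had 0.679 [0.640 to 0.720]. In diaphragm the resident-gated ratios were 0.859 [0.798 to 0.925] for Ccl6 and 1.17 [1.07 to 1.28] for Ccl9. The gates need UMIs of several genes, so deeper cells pass them more often, and the median depth of macrophage-like cells ran between 6762 and 12330 UMIs.

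Classical monocyte-like cells, the population that depends on CCR2 to leave the marrow, held Ccl6 and Ccl9 at high levels where they were present. They numbered 17 cells in mdx5cv/Ccr2-/- quadriceps against 202 in mdx5cv quadriceps, and 5 in mdx5cv/Ccr2-/- diaphragm against 86 in mdx5cv diaphragm. Ccl6 had 597.8 CPM in mdx5cv/Ccr2-/- and 1186 CPM in mdx5cv quadriceps, and 456.3 CPM, from 14 UMIs, in mdx5cv/Ccr2-/- and 982.7 CPM in mdx5cv diaphragm. With so few cells in both mdx5cv/Ccr2-/- libraries no ratio was formed. In mdx5cv/Ccr2-/- quadriceps these cells held 0.964% of all Ccl6 UMIs and 0.669% of all Ccl9 UMIs, and in mdx5cv quadriceps they held 11.9% of Ccl6 and 14.4% of Ccl9.

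Ccl11, the eotaxin of stromal cells, differed between genotypes in quadriceps fibroblast-like cells. It had 71.2 CPM in mdx5cv/Ccr2-/- quadriceps against 207.3 in mdx5cv quadriceps, and 40.6 CPM in mdx5cv/Ccr2-/- diaphragm against 35.6 in mdx5cv diaphragm. The mdx5cv quadriceps library stood apart from the other 3. The genotype ratio was 0.344 [0.324 to 0.365] in quadriceps, where 3.3% of the 5817 genes measured in these cells were called lower and 3.25% higher. It was 1.14 [1.07 to 1.22] in diaphragm, where 0.825% were called lower and 0.464% higher, and was not called there. Per cell the diaphragm ratio was 1.70. The ratio of diaphragm to quadriceps was 0.571 [0.534 to 0.611] in mdx5cv/Ccr2-/- mice and 0.172 [0.162 to 0.182] in mdx5cv mice, and was called lower in both. On mean UMIs per cell it was 0.428 in mdx5cv/Ccr2-/- and 0.0827 in mdx5cv mice. In the mdx5cv/Ccr2-/- contrast 6.89% of genes were called lower and 8.03% higher, and in the mdx5cv contrast 7.7% lower and 7.67% higher. At 2000 UMIs, 13.4% [11.7 to 15.3] of fibroblast-like cells in mdx5cv/Ccr2-/- quadriceps held a Ccl11 UMI against 30.0% [27.1 to 32.9] in mdx5cv quadriceps, and 5.59% [4.89 to 6.36] in mdx5cv/Ccr2-/- diaphragm against 5.83% [5.26 to 6.44] in mdx5cv diaphragm. Unthinned shares were 31.9%, 58.4%, 13.5% and 12.5% in that order, 68, 36, 94 and 255 cells were too shallow to thin, and endothelial-like cells reached at most 0.186%.

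The lower Ccl11 of mdx5cv/Ccr2-/- quadriceps was found in all 6 fibroblast subsets gated on marker UMIs, though by different amounts, as the plot of subset levels shows. A cell could be in more than 1 of these subsets. Cells with Pi16 and Dpp4, marks of progenitor-like fibroblasts, had 220.8 CPM in mdx5cv/Ccr2-/- and 306.0 in mdx5cv quadriceps, a ratio of 0.722 [0.604 to 0.859]. Those with Cthrc1 and Tnc, marks of matrix-producing activated fibroblasts, had 28.9 CPM in mdx5cv/Ccr2-/- and 119.4 in mdx5cv quadriceps, a ratio of 0.242 [0.213 to 0.275]. The other subsets, with Inmt, with Ccl7 and Ptx3, with Penk and Gdf10, or with none of these, had ratios between 0.445 and 0.640. Cells with Cthrc1 and Tnc, the subset lowest in Ccl11 in each quadriceps library, were 41.6% of fibroblast-like cells in mdx5cv/Ccr2-/- quadriceps against 18.9% in mdx5cv quadriceps. In diaphragm, Ccl11 in cells with Pi16 and Dpp4 had 87.5 CPM in mdx5cv/Ccr2-/- and 49.0 in mdx5cv muscle, a ratio of 1.79 [1.49 to 2.15]. Among other chemokines of all fibroblast-like cells, Ccl2 had a quadriceps ratio of 0.276 [0.266 to 0.287] and Ccl7 of 0.292 [0.278 to 0.306]. Of the list of 14, 3 of 4 measured were called lower, against 3.3% of all genes measured in these cells. The median log2 ratio of these 4, with 5 CPM added to each level, was -1.22, against 0.04 over all measured genes.

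**Figure D5:**
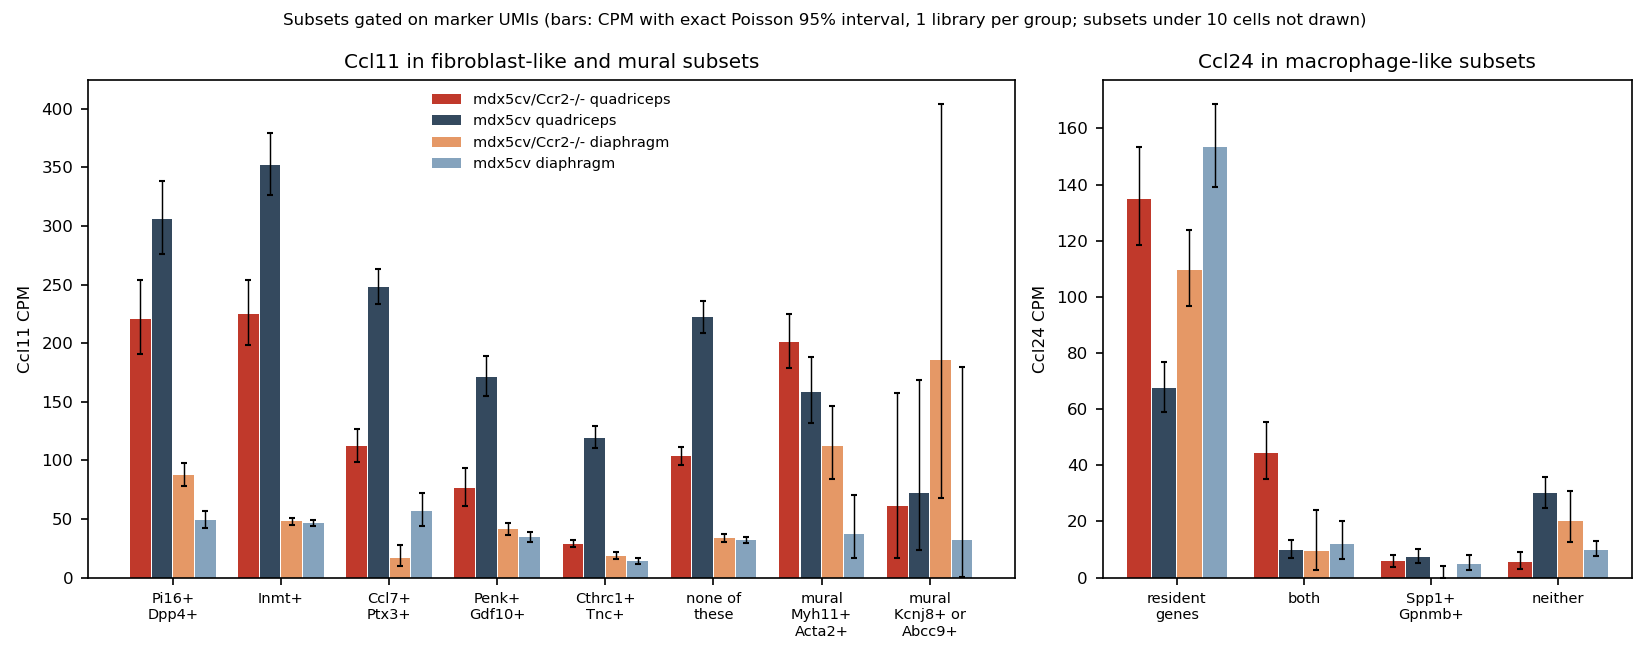
Ccl11 in subsets of fibroblast-like cells and in mural cells (left) and Ccl24 in subsets of macrophage-like cells (right), in CPM (y axes) with exact Poisson 95% intervals, for the 4 libraries. Ccl11 is lower in mdx5cv/Ccr2-/- than in mdx5cv quadriceps in all 6 fibroblast subsets drawn, and Ccl24 is highest in cells gated on resident genes.

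Pericytes and smooth muscle cells were another source of Ccl11, and there the quadriceps ratio was above 1. This class had 182.5 CPM in mdx5cv/Ccr2-/- quadriceps, 136.9 in mdx5cv quadriceps, 117.7 in mdx5cv/Ccr2-/- diaphragm and 46.0 in mdx5cv diaphragm, the last from 13 UMIs. The genotype ratio in quadriceps was 1.33 [1.09 to 1.64] and was not called, and in diaphragm it was 2.56 [1.39 to 5.08] and was called higher. The diaphragm ratio was 2.21 without the 1% of cells with the most Ccl11 and 4.39 on mean UMIs per cell. In mdx5cv/Ccr2-/- diaphragm 1 cell held 25 of the class's 62 Ccl11 UMIs. Before thinning, 14.5% [7.45 to 24.4] of the class held a UMI there, against 8.57% [3.21 to 17.7] in mdx5cv diaphragm, so these intervals overlapped. Of the genes measured in this class 2.07% were called higher and 1.73% lower in quadriceps, and 2.42% higher and 2.81% lower in diaphragm. Cells with both Myh11 and Acta2, the contractile genes of smooth muscle, held 69.2% to 95.5% of the class's Ccl11 UMIs. In mdx5cv/Ccr2-/- quadriceps the class held 15.9% of the library's Ccl11, against 3.75% in mdx5cv quadriceps. Muscle stem cell-like cells held some Ccl11 as well, at 7.52 CPM in mdx5cv/Ccr2-/- quadriceps, 12.8 in mdx5cv quadriceps, 30.9 in mdx5cv/Ccr2-/- diaphragm and 8.55 in mdx5cv diaphragm, from 19 to 41 UMIs each. In mdx5cv diaphragm they held 1.15% of the library's Ccl11, against 0.710% in the mural class.

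Ccl24, the eotaxin of macrophages, was held mostly by cells with resident genes. In macrophage-like cells it had 31.3 CPM in mdx5cv/Ccr2-/- quadriceps, 25.6 in mdx5cv quadriceps, 60.4 in mdx5cv/Ccr2-/- diaphragm and 39.4 in mdx5cv diaphragm. The diaphragm libraries stood above the quadriceps libraries on this scale, with ratios of 1.93 [1.65 to 2.27] in mdx5cv/Ccr2-/- and 1.54 [1.35 to 1.76] in mdx5cv mice. On mean UMIs per cell the ratio in mdx5cv mice turned to 0.812, and that in mdx5cv/Ccr2-/- mice was 1.58. Without the 1% of cells with the most Ccl24, the ratio in mdx5cv/Ccr2-/- mice was 3.43. Between genotypes the ratio was 1.54 [1.32 to 1.78] in diaphragm, just inside the limit for a call (1.46 with median-of-ratios scaling), and 1.22 [1.06 to 1.41] in quadriceps. The quadriceps value was 0.952 without the 1% of cells with the most Ccl24, 1 of which alone held 21.9% of the Ccl24 UMIs of the macrophage-like cells of mdx5cv/Ccr2-/- quadriceps. Thinned shares with a UMI were 4.52% [3.20 to 6.17] in mdx5cv/Ccr2-/- and 4.28% [3.19 to 5.62] in mdx5cv quadriceps, and 10.9% [8.04 to 14.3] in mdx5cv/Ccr2-/- and 6.36% [5.23 to 7.63] in mdx5cv diaphragm, with at most 0.186% in endothelial-like cells.

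Resident-gated cells without Spp1 and Gpnmb held 53.7% to 91.3% of the Ccl24 UMIs of macrophage-like cells. Their level was 135.0 CPM in mdx5cv/Ccr2-/- quadriceps and 67.5 CPM in mdx5cv quadriceps, and 109.6 CPM in mdx5cv/Ccr2-/- diaphragm and 153.4 CPM in mdx5cv diaphragm. In cells with Spp1 and Gpnmb alone it was 5.78 CPM in mdx5cv/Ccr2-/- and 7.52 CPM in mdx5cv quadriceps, no UMI was found in the 57 cells of mdx5cv/Ccr2-/- diaphragm, and mdx5cv diaphragm had 4.94 CPM. The resident-gated ratio was thus 2.00 [1.66 to 2.41] in quadriceps but 0.715 [0.610 to 0.836] in diaphragm, below 1 although the whole class was above it. The quadriceps value leans on 1 cell of mdx5cv/Ccr2-/- quadriceps with 78 of the subset's 235 Ccl24 UMIs. Without that cell it was 1.34 [1.09 to 1.66] and no longer called, and with the top cell left out of both libraries 1.58 [1.27 to 1.96], settings chosen after seeing the data. Such cells were 55.6% of macrophage-like cells in mdx5cv/Ccr2-/- diaphragm and 24.4% in mdx5cv diaphragm, and 21.9% in each quadriceps library. All 7 resident genes measured were called higher in mdx5cv/Ccr2-/- diaphragm macrophage-like cells, with a median log2 ratio of 1.21 against 0.05 over all measured genes. Of all measured genes 5.46% were called higher there. The gate uses genes of this list, Folr2, Lyve1 and Cbr2 among them. The share of gated cells and this count are therefore not separate observations. Folr2, a folate receptor, had 360.7 CPM in mdx5cv/Ccr2-/- and 142.0 CPM in mdx5cv diaphragm. In quadriceps 1 of the 7 was called higher and 2 lower, with a median log2 ratio of 0.31. The shares of all measured genes called there were 3.16% higher and 2.82% lower. Of the 2 resident genes called lower, Cbr2, a carbonyl reductase, had 69.5 CPM in mdx5cv/Ccr2-/- and 142.5 CPM in mdx5cv quadriceps. The lipid-associated list went the other way in diaphragm, with 5 of 8 called lower and a median of -0.80, against 3.77% of all measured genes called lower.

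Over 43 pairs of class and library with at least 50 cells, each member's log2(CPM + 5) was set against that of 10944 genes. The pairs share libraries and cell types, so the correlations describe pattern only. Ccl6 was nearest to Cd300a (Pearson r = 0.97), Igsf6 and Clec4a2, all genes of myeloid cells, and Ccl9 was nearest to Gdpd3, Clec4a2 and Ccl6, with r = 0.93 between Ccl6 and Ccl9. Ccl3 was nearest to Tnf (r = 0.93), Ccl4 and Lilrb4a, and Ccl4 to Sema4a, Atp8b4 and Ccl3. Ccl5 was nearest to the cytokine gene Csf2 (r = 0.92) and the T cell receptor genes Tcrg-C4 and Trbc1. Ccl11 was nearest to Adamts12 (r = 0.93), Vtn and Pi15, and Ccl24 to the complement genes C1qc (r = 0.90) and C1qb and to Pf4.

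Of the receptors for these ligands described here, Ccr1 had its highest level in neutrophil-like cells and Ccr3 was close to undetected. In neutrophil-like cells Ccr1 had 1151 CPM in mdx5cv/Ccr2-/- quadriceps, 1844 in mdx5cv quadriceps, 2255 in mdx5cv/Ccr2-/- diaphragm and 2030 in mdx5cv diaphragm. Macrophage-like cells had 22.3 CPM of Ccr1 in mdx5cv/Ccr2-/- quadriceps against 65.4 in mdx5cv quadriceps, a ratio of 0.341 [0.297 to 0.392], and 55.2 in mdx5cv/Ccr2-/- diaphragm against 56.2 in mdx5cv diaphragm, a ratio of 0.981 [0.849 to 1.13]. Ccr3, the receptor of Ccl11 and Ccl24, had 23 UMIs in all cells of mdx5cv/Ccr2-/- quadriceps, 41 in mdx5cv quadriceps, 7 in mdx5cv/Ccr2-/- diaphragm and 15 in mdx5cv diaphragm, most of them in macrophage-like cells. No cell passed the eosinophil gate in any library. Of the eosinophil granule genes, Epx had no UMI in any cell, and Prg2 had 30 UMIs, none of them in macrophage-like cells. The eosinophil marker Siglecf had 134 UMIs in all cells, 42 of them in macrophage-like and 36 in neutrophil-like cells. Il5ra had 49, of which 4 were in macrophage-like cells. Ackr2, an atypical receptor that takes up CC chemokines without signalling, had its highest level in lymphatic endothelial-like cells, at 383.6 CPM in mdx5cv/Ccr2-/- quadriceps (10 cells), 193.4 in mdx5cv/Ccr2-/- diaphragm (22 cells) and 171.1 in mdx5cv diaphragm (97 cells).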

How the data were processed

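Mononuclear cells of 4 muscles' libraries were profiled with 10x Genomics 3′ v3.1 chemistry, per the labels' protocols. The authors deposited raw UMI counts per gene and barcode, made with Cell Ranger 6.1.2 on build mm10, per the submitters' processing notes. No normalisation had been applied, and each library's least covered barcode held 500 to 502 UMIs. The sources used here do not name the annotation release or say whether intronic reads were counted.

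Of 33554 barcodes, 31077 had at least 500 UMIs, 300 genes and at most 15% mitochondrial UMIs. Scrublet (scanpy 1.11.5) scored doublets, and the highest 0.8% per 1000 deposited barcodes (2508 in all) were removed, leaving 28569 cells. A cell joined a class when at least 3 markers of that class had a UMI and it led the next class by at least 1 marker, and 5.01% of cells joined none. Markers were fixed at the start, whereas this rule and the subset gates were chosen after seeing the data. The members and all gene lists were chosen with earlier results of these data known.

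CPM is a gene's summed UMIs per 1000000 UMIs of the same cells. Intervals are at 95% throughout. For levels they are exact Poisson, for shares exact binomial, and for ratios they come from the Clopper-Pearson interval of one library's part of both libraries' UMIs. A share of 0 allows 3 counts. Ratios needed 50 cells in each library and 10 UMIs over both, and for the cell subsets, which can be smaller, the same rule was applied. Background shares are over genes with a mean of at least 20 CPM and at least 50 UMIs. Median log2 ratios of the gene lists were taken with 5 CPM added to each level. All 7 members are named. A listed gene could be named when it had at least 50 UMIs and was among the 6 with the most of its list, and the 3 genes nearest in pattern are named for each member. Exceptions chosen after their values were seen are Epx, Prg2 and Il5ra. The interval and call code was tested on simulated counts. Python 3.11.15, numpy 2.4.6, scipy 1.17.1 and pandas 2.3.3 were used. Gene positions are from GENCODE (GRCm38) and promoters from RefSeq. Results for 1 receptor are not reported here.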

Additional observations from a re-analysis of the deposited data

Results flagged for a closer look

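Each result here is a ratio of mdx5cv/Ccr2-/- to mdx5cv that lay on opposite sides of 1 in the 2 muscles, with both counting intervals off 1. With 1 library per group, the difference between muscles was not tested.

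The Ccl11 ratio was below 1 in quadriceps and above 1 in diaphragm in all cells (0.475 in quadriceps, 1.39 in diaphragm), in FAP/fibroblast-like cells (0.344 and 1.14), in those with Cthrc1 and Tnc (0.242 and 1.36) and in those with Pi16 and Dpp4 (0.722 and 1.79). Of these diaphragm ratios only that of cells with Pi16 and Dpp4 was called. That of all FAP/fibroblast-like cells was 1.07 without the 1% of cells with the most Ccl11. Their diaphragm shares at equal depth had overlapping intervals. With the top cell left out of each library, the diaphragm ratio of cells with Cthrc1 and Tnc was 1.215 [0.952 to 1.555]. That interval includes 1, so this ratio would then not be flagged. Ccl3 in cDC2-like cells had a ratio of 0.549 in quadriceps and 1.80 in diaphragm, the second of which was 1.49 with the top cell left out of each library. Within resident-gated macrophage-like cells, Ccl9 had a ratio of 0.472 in quadriceps and 1.17 in diaphragm. Ccl24 in the same cells went the other way round, with 2.00 in quadriceps and 0.715 in diaphragm. The quadriceps value was 1.34 without 1 cell of mdx5cv/Ccr2-/- quadriceps, which held 78 of the 235 Ccl24 UMIs there.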

How the results depend on the processing

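Of 565 pairs of a single ratio and an alternative setting, over 72 ratios, 431 moved by less than the counting interval, 133 moved beyond it and 1 reversed, meaning that a called ratio turned to the other side of 1. Counting ratios that were not called, 23 pairs lay on the other side of 1, of which 10 on mean UMIs per cell. The called one was Ccl24 in macrophage-like cells between the muscles of mdx5cv mice, at 0.812 on mean UMIs per cell against 1.54 on CPM. This scaling shifted every gene in macrophage-like cells by 0.60 (log2) for the genotypes in diaphragm, by -0.29 between the muscles of mdx5cv/Ccr2-/- mice and by -0.92 between those of mdx5cv mice, whereas the other scalings stayed within 0.08. For the genotype contrast in quadriceps macrophage-like cells, 2 members were called lower, but 1 under a stricter gate and 0 with a fold of 2. In diaphragm, 2 were called lower, but 1 on mean UMIs per cell and 1 with a fold of 2. There, 1 was called higher, but 2 on mean UMIs per cell, 0 with median-of-ratios scaling and 0 with a fold of 2. Between muscles, the mean UMIs per cell gave 1 lower in place of 0 in mdx5cv/Ccr2-/- mice and 2 higher in place of 4 in mdx5cv mice, where a fold of 2 left 0 lower in place of 2. Of thinned shares in macrophage-like cells, 3 members had lower and separate intervals in mdx5cv/Ccr2-/- quadriceps, but 1 at 1000 UMIs and 1 at 4000. In diaphragm 1 was lower, but 2 at 4000 UMIs, and 1 was higher, but 0 at 1000. Of the 21 nearest genes, 13 were kept with a pseudocount of 1 CPM and 5 with classes of at least 100 cells. With the top cell left out of each library, chosen after seeing the data, 27 of 30 genotype ratios stayed within their intervals. Causes were not tested. No paired analysis was possible because each group had 1 library.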

Other observations

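Among the other CC chemokines, Ccl17, a ligand of CCR4 made by dendritic cells, was higher in the mdx5cv/Ccr2-/- libraries over all cells, at 16.1 CPM in mdx5cv/Ccr2-/- and 3.51 CPM in mdx5cv quadriceps, and at 18.6 CPM in mdx5cv/Ccr2-/- and 3.72 CPM in mdx5cv diaphragm. The ratios were 4.57 [3.89 to 5.39] in quadriceps and 5.00 [4.39 to 5.71] in diaphragm. In cDC2-like cells it had 366.1 CPM in mdx5cv/Ccr2-/- and 32.7 CPM in mdx5cv quadriceps, and 274.6 CPM in mdx5cv/Ccr2-/- and 30.3 CPM in mdx5cv diaphragm. Ccl17 is outside the rule for named genes and was picked after its values were seen.

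In macrophage-like cells of the diaphragm, Ccl8 had 790.7 CPM in mdx5cv/Ccr2-/- and 439.7 CPM in mdx5cv mice, a ratio of 1.80 [1.73 to 1.87]. Ccl12, a ligand of CCR2, had 374.8 CPM in mdx5cv/Ccr2-/- and 187.7 CPM in mdx5cv diaphragm, a ratio of 2.00 [1.88 to 2.12]. In quadriceps their ratios were 1.18 [1.14 to 1.22] for Ccl8 and 0.896 [0.836 to 0.960] for Ccl12.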
